A study of Rattus norvegicus with 24 samples.

Results

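Transcripts were assembled in frontal cortex of the rat from reads that fell outside all genes of the reference annotation. An assembled locus was taken as a row that StringTie, a program that joins aligned reads into transcripts, had added to the gene table of a library under an identifier of its own. It was counted as outside when it shared no base with a reference gene on either strand. The loci were thus chosen by assembly from these reads and by position, and number, span and coverage are given as a description of what was chosen. Of the 985695 assembled loci in 16 libraries, 459141 met this rule, and 416231 of these came from the 15 libraries that remain when Control library 56 is shown apart. At the limit of the rule in these 15 libraries, 5780 outside loci lay within 100 bases of a gene, at a median coverage of 3.90, and 7200 assembled loci overlapped one by 100 bases or fewer, at 3.02.

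The samples were adult male Sprague-Dawley rats that inhaled tungsten particles at 0 mg/m3 (Control), 5 mg/m3 (Low) or 80 mg/m3 (High), with 8 libraries per group, taken a day after exposure. Polyadenylated RNA was sequenced from stranded libraries. The Low tables hold 0 assembled loci, so only Control and High can be compared. The labels name each library as a separate sample, and the rats were separate subjects.

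An assembler reports a locus wherever enough reads overlap, whether or not a gene is known there. Such loci can be a stretch of a gene past its annotated end, a noncoding RNA, RNA from the opposite strand of an active promoter, or a gene that the annotation lacks. In brain, many genes end in long untranslated regions that older annotations cut short, and neurons also produce many long noncoding RNAs.

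Reference genes of neurons, astrocytes and oligodendrocytes were present in all 15 libraries. Syt1, a calcium sensor of synaptic vesicles, had a scaled coverage of 396 to 725, and Mbp, a protein of myelin, of 1131 to 3027. Scaled coverage is coverage, the mean read depth per base, divided by its sum over the reference genes and multiplied by 1000000. The endothelial gene Cldn5 was listed at 0 to 0.128, while Flt1, another endothelial gene, was at 14.2 to 27.1. Ttr, made by choroid plexus, ranged from 0.348 to 68.4, and Drd1, a dopamine receptor of the striatum, from 3.65 to 56.1, so the libraries differed in these markers. Their part in the results was not tested. The amount of sequence, which coverage divided by FPKM gives, was 5.05 to 7.86 gigabases in Control (median 5.15, n = 7) and had a median of 6.52 gigabases in High (n = 8). The tables give no read counts, and the counting error of a value is unknown.

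The outside loci are described first by number. Among the 15 libraries a table held 21638 to 36604 of them, with a median of 26549. They made up 46.7% to 55.1% of all assembled loci. Library 52 had the fewest and library 51 the most. In Control the number was 31113 in library 49, 24154 in 50, 36604 in 51, 21638 in 52, 25525 in 53, 24356 in 54 and 24035 in 55. In High it was 23902 in library 65, 33700 in 66, 33852 in 67, 24815 in 68, 26549 in 69, 30325 in 70, 28318 in 71 and 27345 in 72. The ranges overlapped, with the Control libraries 49 and 51 among the high values and the other 5 Control libraries at 25525 or fewer.

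The number of outside loci went with the amount of sequence. Over the 15 libraries Pearson's r with sequenced gigabases was 0.785 (permutation p = 0.00168, adjusted p = 0.00504 over 6 relations) and Spearman's rho was 0.782 (permutation p = 0.00102). Without the 2 libraries farthest from the median depth, r was 0.629. In High alone r was 0.841 (exact permutation p = 0.00804, n = 8) and stayed at 0.792 without the 2 farthest. In Control alone r was 0.740 (exact permutation p = 0.103, n = 7) and turned to -0.069 without the 2 farthest. Among the libraries left, library 49 had 31113 loci at 5.15 gigabases, beside 21638 in library 52 at 5.14. The relation within Control thus depended on which libraries were kept. The outside share of assembled loci also went with sequenced gigabases, with r = 0.856 (permutation p = 4.0e-05, adjusted p = 0.00024, rho = 0.832, n = 15).

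**Figure D1:**
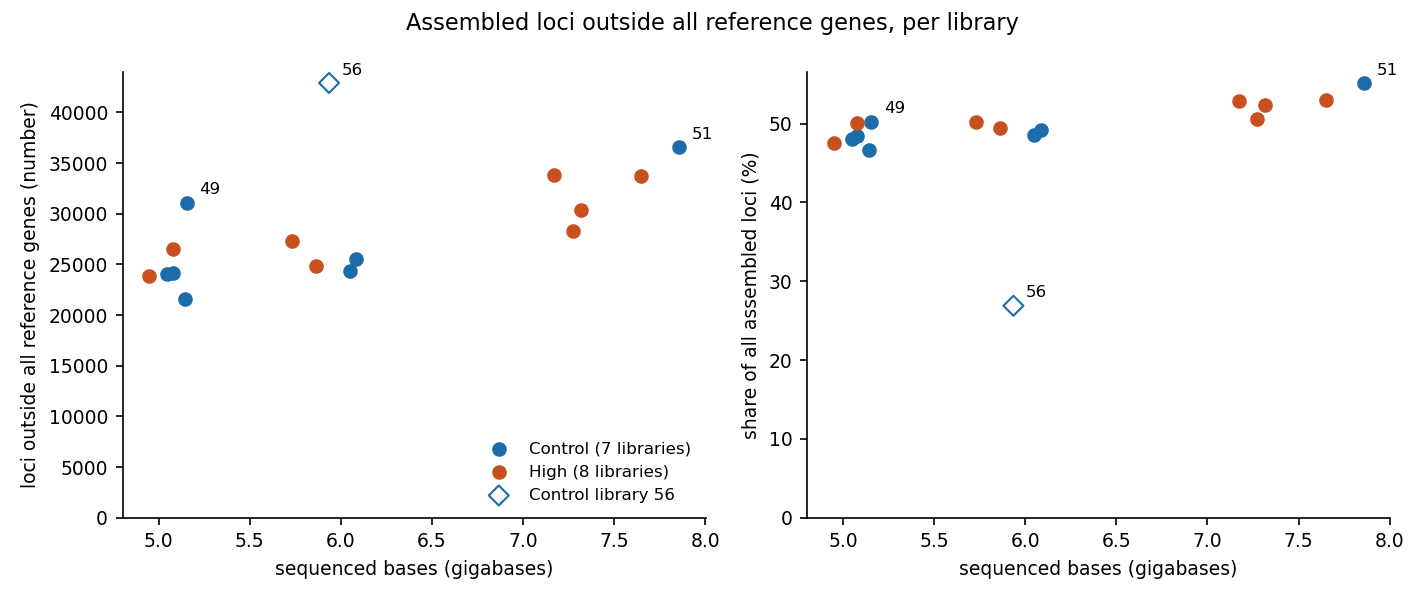
The horizontal axis is the number of sequenced bases in gigabases, and the vertical axes are the number of loci outside all reference genes (left) and their share of all assembled loci in percent (right). Each point is 1 library, in blue for Control and orange for High. Library 56, drawn as an open diamond, has the highest number (42910) and the lowest share (26.9%).

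Outside loci were short and thinly covered. Their median span, from first to last base of the table row and including any introns, was 415 to 452 bases over the 15 libraries, and the shortest span in each library was 200 bases. The quartiles varied little between libraries, with the lower quartile at 268 to 280 bases and the upper at 804 to 887. Between 234 and 348 loci per library spanned more than 10 kb. Median coverage was 3.24 to 3.37 reads per base with a lower quartile of 2.79 to 2.83, and 82.7% to 85.0% of the outside loci had a coverage under 5. Coverage of 10 or more was reached by 3.80% to 4.52% of the loci, and of 100 or more by 41 to 88 loci per library. For comparison, assembled loci that overlapped a reference gene on its own strand had a median coverage of 6.58 in library 49 and 11.6 to 15.9 in the other 14 libraries. Outside loci held 9.98% to 13.1% of the coverage summed over all assembled loci, and 0.800% to 1.14% when coverage was multiplied by span, which includes introns.

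Distances to genes are given as a description, since the share of gene-free sequence at each distance was not measured. The median distance to the nearest reference gene on either strand was 10563 to 15508 bases, with the highest value in library 49, and 42.2% to 48.9% of the loci lay within 10 kb of a gene. A further 14.5% to 18.4% lay more than 100 kb away. Position relative to the gene was uneven between the strands. In the first 10 kb past the end of a gene, 23.3% to 27.9% of the loci lay on the gene's own strand and 10.4% to 12.03% on the opposite one, and the ranges did not overlap. In the first 1 kb past the end these shares were 4.23% to 5.61% on the same strand against 1.62% to 1.95% on the opposite strand. In front of a gene the order was the other way round: within 1 kb of the start, 2.64% to 3.61% of the loci lay on the opposite strand, pointing away from the gene, and 1.52% to 2.21% on the same strand.

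**Figure D2:**
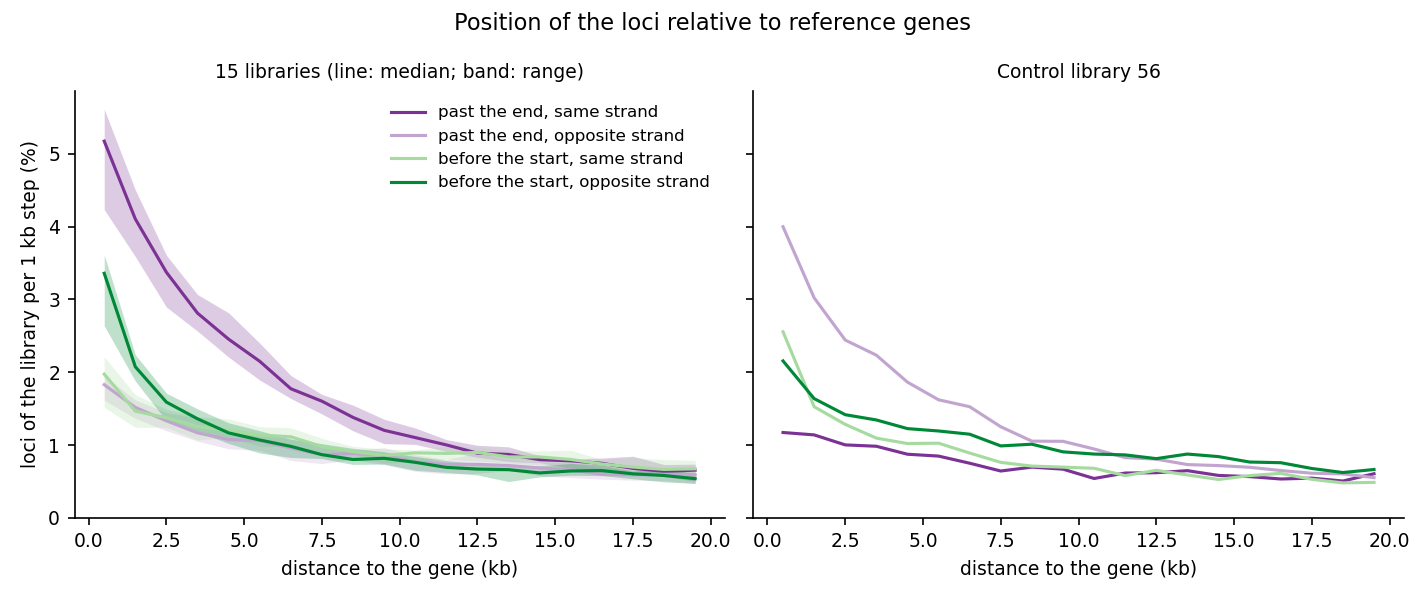
The horizontal axis is the distance to the gene in kb, and the vertical axis is the share of a library's outside loci in each 1 kb step, in percent. The left panel shows the median (line) and range (band) over 15 libraries, and the right panel shows library 56. In the 15 libraries loci past the end on the same strand stand highest, at a median of 5.18% in the first step, while in library 56 those past the end on the opposite strand do, at 4.00%.

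Library 56 stood apart in the strand of its loci. It listed 42910 outside loci, 26.9% of its assembled loci, and 59.9% of its assembled loci were antisense to a reference gene, against 8.20% to 11.6% in the other 15. Its outside loci resembled the others in median span (437 bases) and median coverage (3.28). Past the end of genes, however, 8.78% lay on the gene's strand and 20.1% on the opposite strand. Of its outside loci, 9.02% overlapped an outside locus of any other library on the same strand and 67.4% on the opposite strand. The other libraries matched at 76.0% to 84.0% on the same strand and 9.06% to 10.9% on the opposite one. The cause was not tested. For these reasons library 56 was left out of the values below unless it is named.

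Matched between libraries by at least 1 shared base on the same strand, the 416231 loci collapsed into 122677 consensus loci. Of these, 81254 (66.2%) were found in 1 library, 32015 (26.1%) in 2 to 7, 7156 (5.83%) in 8 to 14 and 2252 (1.84%) in all 15. The 2252 loci found in all 15 libraries, called all-library loci here, held 23.2% of the rows. Loci unique to 1 library made up 15.98% to 23.99% of a library's outside loci. Chains of overlapping rows can join neighbouring transcripts, so that an all-library locus had a median consensus span of 5037.5 bases against 872 bases for its assembled rows. With an overlap of at least 50% of the shorter row required, 2180 loci were found in all 15 libraries.

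All-library loci were longer and better covered than loci seen once. Coverage is tied to recurrence by the matching, since a locus had to be assembled in each library. Median distance to a gene was 16116 bases in loci of 1 library, 5136 in those of 8 to 14 and 6846.5 in all-library loci. It was taken from the edges of the consensus span, with a median of 253 bases in loci of 1 library and 5037.5 in all-library loci, so these distances are not like for like. Median coverage was 2.91 in loci of 1 library and 4.25 in all-library loci, and 0.294% and 17.6% had a coverage of 10 or more. The median assembled span was 253 and 872 bases. Of the loci in 1 library, 18.0% lay within 10 kb past the end of a gene on its strand, against 33.5% of all-library loci, while on the opposite strand the shares were 11.02% and 13.01%. These shares were also taken from the edges of the consensus span and are not like for like. The values are a description over loci, which are not replicates. Among loci found in 8 to 14 libraries, 20.3% of the 29487 cases without an outside row had a row on the same strand that overlapped a reference gene. When any assembled row on the same strand was counted, over all consensus loci, 5825 were in all 15.

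**Figure D3:**
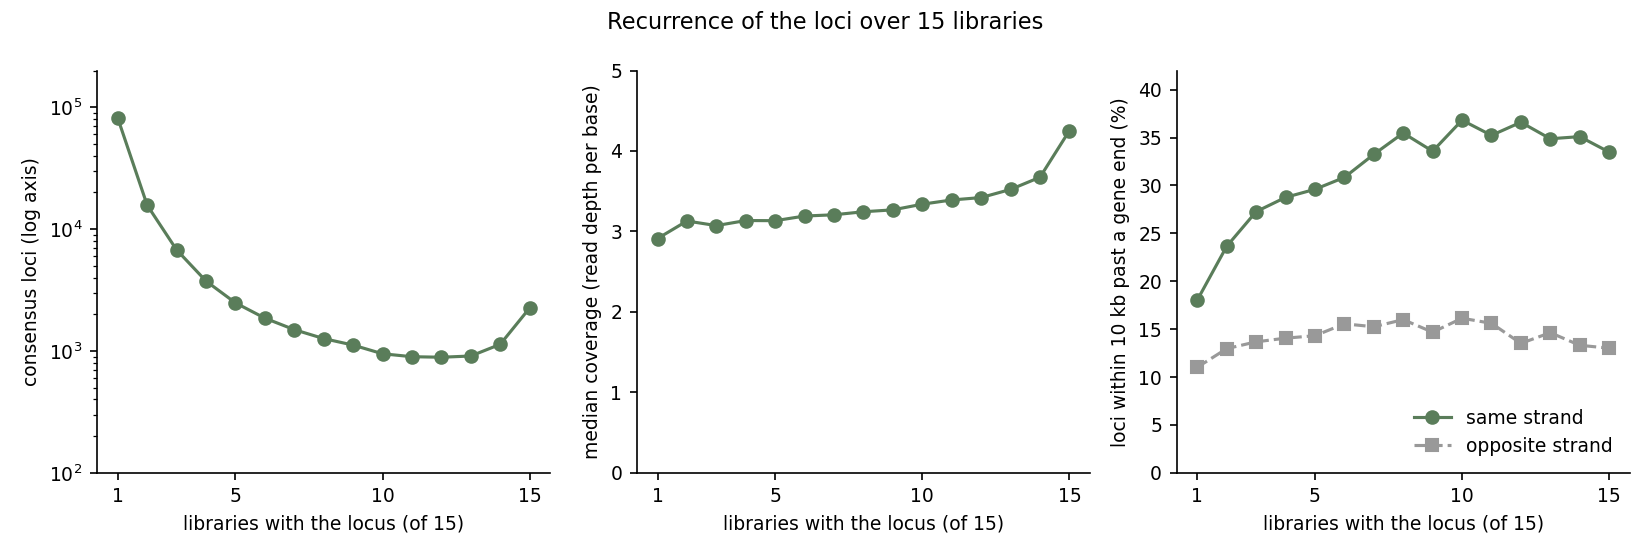
The horizontal axis of each panel is the number of libraries, of 15, in which a consensus locus was found. The panels give the number of consensus loci on a log axis, their median coverage as read depth per base, and the share within 10 kb past a gene end in percent on the same and the opposite strand. The number falls from 81254 at 1 library and rises again to 2252 at 15, where median coverage is highest at 4.25.

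Nearly all of the all-library loci were present in library 56 on the other strand. Of the 2252, 2221 (98.6%) overlapped an outside locus of library 56 on the opposite strand and 237 (10.5%) on the same strand. In the other 15 libraries, 7.10% to 10.97% of these loci had an outside locus on the opposite strand. When the consensus was built with library 56, 240 loci were found in all 16 libraries, and with its strands exchanged, an alternative chosen after seeing the data, 2229 were.

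The 10 all-library loci with the highest median scaled coverage had overlapping values in Control and High. Positions are those of the tables, whose build is not settled by the sources used here. The highest, chr5:138042657-138042878 on the plus strand, lay 13028 bases past AABR07073144.1 and 111795 bases before Slc2a1, the glucose transporter of the blood-brain barrier. Its scaled coverage was 936 to 1175 in Control (median 1097, n = 7) and 1092 to 1298 in High (median 1151, n = 8). Library 56 held it on the opposite strand at 1110, within the range of the others. RefSeq's GRCr8 annotation lists a snoRNA, a lncRNA and 2 pseudogenes between Lao1 and Slc2a1, among them Ubb-ps1, a pseudogene of a polyubiquitin gene.

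The locus in second place, chr7:11012838-11013374 on the minus strand, lay 307 bases from Tle5, a transcriptional regulator of the Groucho family, past its end on its strand. It was at 329 to 492 in Control (median 369) and 354 to 432 in High (median 380). Its own neighbour had a scaled coverage of 788, the highest among the neighbours of these 10 loci. Past the end of Cadm4, Fam168b and Pex5l, too, a locus lay on the strand of the gene. The locus chr1:81370311-81370635 began 202 bases past Cadm4, a cell adhesion protein of myelinating glia, with a scaled coverage of 99.4 to 145 in Control and 116 to 153 in High. The locus chr9:41303456-41305177 began 393 bases past Fam168b and was at 95.02 to 146 in Control and 105 to 142 in High. The locus chr2:119322771-119325495 lay 4585 bases past Pex5l and was at 76.5 to 143 in Control and 64.0 to 132 in High. In all of these the groups overlapped.

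Of the other 5, the locus chr8:69721867-69722641, 30732 bases from Tipin, had the widest relative spread, from 60.3 to 207 in Control and from 119 to 188 in High. The locus chr3:124014120-124014359 lay 8694 bases past AABR07053749.2, on its strand, with 92.9 to 148 in Control and 105 to 133 in High. A locus of 3795 bases at chr14:30365763-30369557 lay 34632 bases from the microRNA gene Mir193b and was at 67.9 to 113 in Control and 83.0 to 100.1 in High. The locus chr1:91070421-91071447 ended 46 bases from Cox7a1 on the strand opposite to it and was at 61.9 to 118 in Control and 73.9 to 127 in High. The last, KL568464.1:63738-64292, lay on an unplaced sequence with no reference gene, at 45.1 to 133 in Control and 77.5 to 115 in High. Library 56 had all 10 on the opposite strand, at values inside the range of the 15 libraries.

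**Figure D4:**
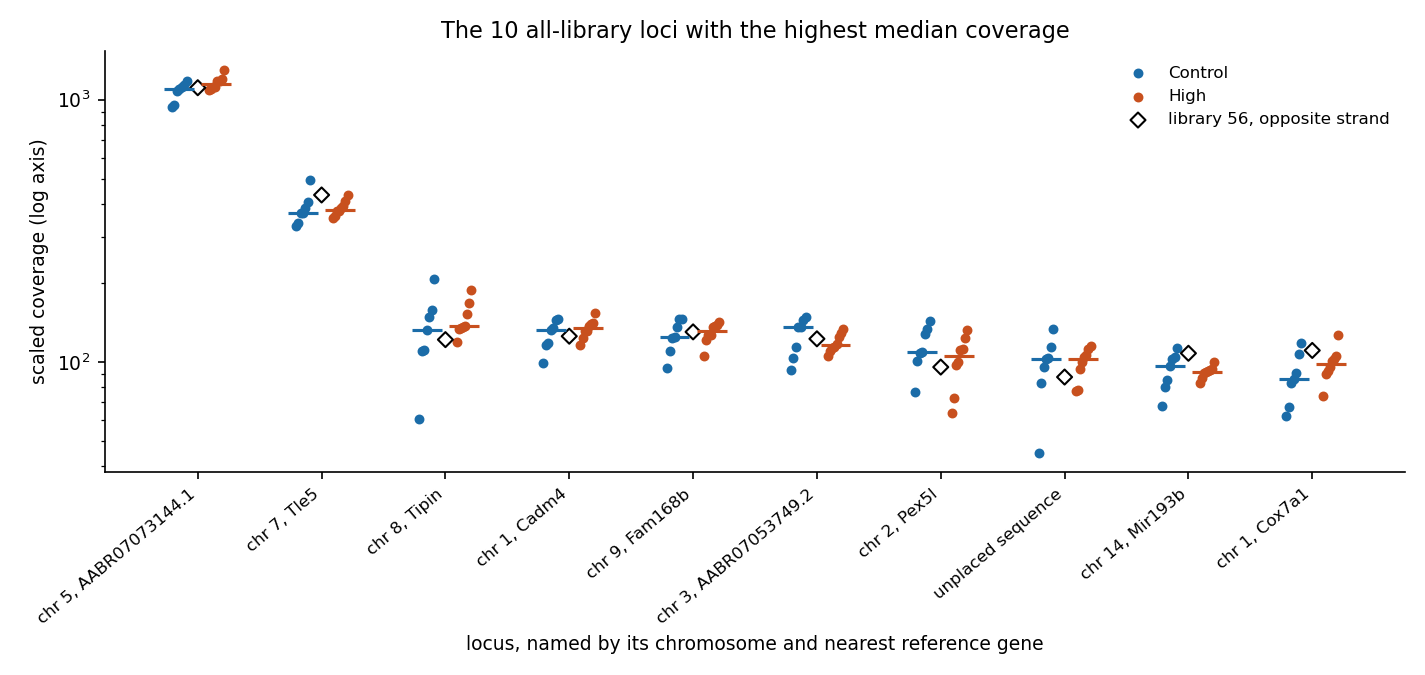
The horizontal axis names the 10 loci by chromosome and nearest reference gene, and the vertical axis is scaled coverage on a log axis. Points are the 7 Control (blue) and 8 High (orange) libraries, bars are group medians, and open diamonds are library 56 on the opposite strand. Control and High points overlap at each locus, and the first locus has medians of 1097 and 1151.

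Some of the highest coverages were outside this set because the locus was not an outside row in every library. These 3 were chosen after their values were seen. The locus chr14:46329441-46329901 on the minus strand reached a scaled coverage of 9294 to 20104 in the 7 Control libraries and 8079 to 15472 in 7 High libraries, more than any other outside locus. In High library 65 it was part of a row of 199933 bases that overlapped reference genes. The unscaled coverage of that row was 11678, against an unscaled 16509 to 40165 for the locus in its 14 libraries. Among its outside rows, library 56 listed it at 47.3 on the same strand, with none on the opposite strand. Rows of library 56 that overlap reference genes were not searched here, so its full coverage at this place is not given. The locus chr2:165139773-165140126 was an outside row in 9 libraries, at 821 to 3489. On the unplaced sequence, KL568272.1:14134-14337 was in 5 libraries at 2011 to 4149 and had no assembled row in the other 10. High values and absence thus alternated between libraries of the same group.

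The 5 longest all-library loci were of 2 kinds. In 3 of them, chains of many short rows covered a wide stretch thinly. The longest, chr3:26067261-26995902 (928642 bases, 832 rows), was at 1.58 to 2.996 in Control and 1.17 to 3.13 in High. RefSeq's GRCr8 lists Lrp1b, a large lipoprotein receptor, among the genes between its neighbours, a gene that the tables do not name. The second, chr1:121637679-122290623, lay beside the snoRNA and microRNA genes SNORD115 and Mir344a-2 and was at 1.89 to 3.17 in Control and 1.79 to 4.03 in High. The chain chr20:15733238-16298270 was at 1.17 to 2.02 in Control.

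The other 2 held rows that ran across the whole stretch and were well covered. The locus chr16:85528118-86054741 had a median row span of 525332 bases and a scaled coverage of 78.2 to 88.5 in Control and 21.8 to 88.1 in High, where library 66 stood alone at 21.8 and the other 7 were at 58.7 or more. GRCr8 lists Nalf1, a subunit of the sodium leak channel complex, between the same neighbours, Lig4 and Arglu1. The locus chr4:48308084-48817839 had a median row span of 509599 bases and was at 30.8 to 47.7 in Control and 13.1 to 47.0 in High, again lowest in library 66. Its place between Ankrd7 and Tspan12 is where GRCr8 lists Kcnd2, a potassium channel of dendrites, which is also not named in the tables. The order of genes does not show that the locus is that gene.

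The loci farthest from any gene were on chromosomes 13 and 19 and on 1 unplaced sequence. The farthest, chr13:11390084-11392333, had 1269920 bases to its nearer neighbour. It was at 3.05 to 5.06 in 6 Control libraries and 13.3 in library 55, and at 2.81 to 4.17 in High. The locus KL568161.1:7188400-7194168 ranged from 4.60 to 20.9 in Control and from 4.93 to 22.2 in High. A pair of adjoining loci on chromosome 19, chr19:47493403-47498058 and chr19:47498102-47501382, lay 696746 and 693422 bases from Maf, a transcription factor, and stayed between 1.11 and 2.71. The locus chr13:59663228-59664633 was at 4.81 to 11.6 in Control and 6.98 to 9.88 in High. In each of them the groups overlapped.

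Gene ends were followed by all-library loci in a small share of expressed genes. On the strand of a gene and within 10 kb past its end lay 754 of the 2252 loci. Of 15580 reference genes with a median scaled coverage of at least 1, 643 (4.13%) had such a locus. The share rose little with expression, from 3.57% in the 3895 genes of lowest coverage to 4.60% in the 3895 of highest. Of the 754 loci, 680 lay past a gene with a median scaled coverage of at least 1. These 680 were at a median of 21.02% of the coverage of the gene, and 24.1% exceeded it. Past the end on the opposite strand the values were similar, at 20.3% and 19.8%. Before the start they were 24.6% and 23.4% on the same strand, and lower on the opposite strand, at 11.97% and 7.64%. Log coverage of the locus and of its gene was also correlated across the 15 libraries. For loci past the end on the same strand the median r was 0.207 over 680 pairs, against 0.082 on the opposite strand. For loci before the start it was 0.071 on the same strand and 0.135 on the opposite strand. These correlations share library and depth and are a description only.

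Brcc3, a deubiquitinating enzyme, and Zfp1, a zinc finger protein, each had 3 such loci. The loci past Brcc3 began at 466 bases and reached a scaled coverage of 6.20 against 24.8 for the gene, and those past Zfp1 began at 989 bases and reached 2.78 against 13.99. Among the genes with 2 loci, Mgat5, a glycosyltransferase, and Wac had the best covered ones, at 26.1 and 23.8 against 22.6 and 60.2 for the genes. The others named by this rule were Fam199x, Eapp, Oprd1, an opioid receptor, Tyms, the thymidylate synthase, and Ctnnd1, a catenin. At Fam199x, Oprd1 and Tyms the best covered locus, at 9.93, 8.99 and 7.38, was above the gene itself at 2.11, 4.45 and 5.06.

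Genes of the synapse were described by list. All-library loci past the end followed 4 of 23 glutamate receptor and postsynaptic scaffold genes, 4 of 16 inhibitory synapse genes, 3 of 15 synaptic adhesion genes, 1 of 19 presynaptic release genes and 1 of 19 ion channel genes, beside 4.13% of all genes with coverage of at least 1. They followed 0 of 18 axon cytoskeleton genes, 0 of 16 astrocyte genes, 0 of 18 oligodendrocyte genes, 0 of 14 microglia genes and 0 of 11 genes of endothelium and mural cells. The highest were past Homer1, a postsynaptic scaffold, at 22.6 against 49.8 for the gene. Grm5, a metabotropic glutamate receptor at 32.8, was followed by a locus at 3.04. Gria2, an AMPA receptor subunit at 223, was followed by one at 1.75. The GABA receptor genes Gabra3 and Gabra4, at 43.9 and 60.8, were followed by loci at 2.81 and 2.70. Past Ntm and Opcml, which encode adhesion proteins, the loci were at 1.83 and 1.74 against 114 and 91.7 for the genes. Past Snap25, a protein of vesicle fusion, the locus was at 1.67 against 148. The median scaled coverage over all-library loci was 2.37. The lists were not tested.

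In front of genes, 209 all-library loci lay within 1 kb of a start on the opposite strand. RefSeq promoter sequences, 250 bases before to 50 after the start in GRCr8, were found for 128 of these genes by symbol. The 3 of these with the best covered loci are shown because their promoter lies between or at 2 transcripts that run apart, and CG pairs, which are dense in promoters of this kind, are in capitals.

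The promoters read 5′ to 3′ on the strand of each gene:
Fam120a, GRCr8 chr17:15890361-15890660, plus strand: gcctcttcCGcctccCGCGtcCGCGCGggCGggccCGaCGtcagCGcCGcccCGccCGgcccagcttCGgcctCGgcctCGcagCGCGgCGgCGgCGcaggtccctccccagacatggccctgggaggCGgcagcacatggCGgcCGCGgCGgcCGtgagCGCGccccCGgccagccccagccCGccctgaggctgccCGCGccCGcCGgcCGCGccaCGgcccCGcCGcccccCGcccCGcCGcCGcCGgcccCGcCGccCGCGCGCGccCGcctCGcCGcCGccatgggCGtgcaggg
Cks2, GRCr8 chr17:13727470-13727769, minus strand: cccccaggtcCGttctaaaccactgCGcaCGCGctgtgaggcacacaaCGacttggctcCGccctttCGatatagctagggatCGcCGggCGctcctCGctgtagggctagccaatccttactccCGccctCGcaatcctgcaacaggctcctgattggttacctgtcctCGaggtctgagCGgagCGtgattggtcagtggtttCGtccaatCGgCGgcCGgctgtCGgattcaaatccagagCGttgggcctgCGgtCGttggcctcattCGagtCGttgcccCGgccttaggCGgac
Dpy19l1, GRCr8 chr8:31297270-31297569, minus strand: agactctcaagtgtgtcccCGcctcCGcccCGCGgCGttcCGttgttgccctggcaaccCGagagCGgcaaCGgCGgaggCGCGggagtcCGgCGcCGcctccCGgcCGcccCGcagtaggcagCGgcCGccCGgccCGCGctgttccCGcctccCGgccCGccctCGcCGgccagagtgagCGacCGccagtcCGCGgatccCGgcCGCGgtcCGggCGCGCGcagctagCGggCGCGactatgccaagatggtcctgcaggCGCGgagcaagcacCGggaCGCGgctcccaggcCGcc

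The Fam120a promoter held 56 CG pairs, the Cks2 promoter 28 and the Dpy19l1 promoter 48, against a median of 8 over 24206 promoters and 26 over the 128. The letters GGGCGG, on either strand, were in 71.9% of the 128 and 35.9% of all promoters, TATAAA in 9.38% and 14.3%, and CCAAT in 34.4% and 37.8%. A match is a description of the letters. The 24206 promoters were not limited to genes expressed in these libraries, so the contrasts with the 128 are not matched for expression. Fam120a encodes an RNA-binding protein, and the locus 465 bases before it, chr17:16104591-16105672, was at 9.71 to 18.4 in Control (median 12.5) and 7.97 to 15.2 in High (median 11.8), against 63.2 for the gene. Before Dpy19l1, a mannosyltransferase, chr8:25669597-25671142 was at 6.44 to 10.8 in Control and 6.72 to 10.2 in High, against 59.9 for the gene. The locus 138 bases before Cks2, a small partner of cyclin-dependent kinases, was the exception: chr17:13593561-13616622 was at 3.51 to 11.5 in Control (median 10.7) and 8.90 to 16.9 in High (median 12.8), while Cks2 itself had a coverage of 0.887.

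RefSeq's GRCr8 was also read for genes that it lists between the same neighbours as a locus and that the tables do not name. For 1525 all-library loci both neighbours could be found in a comparable order, and for 1099 of these (72.1%) GRCr8 lists such a gene, protein-coding for 31.3% and lncRNA for 51.6%. For loci of 1 library the shares were 74.7%, 28.8% and 57.7%. These genes can lie anywhere between the neighbours, and the shares cover only the loci whose neighbours could be used.

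The comparison of High with Control asked whether inhaled tungsten at 80 mg/m3 changed the outside loci. No difference between the groups passed the test for number, share, span, coverage, distance or position. The mean number was 28601 ± 3757 in High (SD, n = 8) and 26775 ± 5222 in Control (SD, n = 7), a difference of 1826 (exact permutation p = 0.446, two-sided, adjusted p = 0.733 over 7 measures). Per sequenced gigabase the means were 4528 ± 435 and 4663 ± 676 (exact permutation p = 0.671), with the order turned. The share of assembled loci was 50.7% ± 1.89 in High and 49.5% ± 2.71 in Control (exact permutation p = 0.308, adjusted p = 0.733).

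Median span was 434.8 ± 9.3 bases in High and 430.9 ± 13.0 in Control (exact permutation p = 0.523, adjusted p = 0.733). Median coverage was 3.32 ± 0.024 and 3.28 ± 0.054 (exact permutation p = 0.103, adjusted p = 0.722), close above the lower edge of the listed coverages. The median distance to a gene was 12271 ± 709 and 12068 ± 1898 bases (exact permutation p = 0.797, adjusted p = 0.797). The share past a gene end on its strand was 25.8% ± 0.784 and 26.1% ± 1.79 (exact permutation p = 0.642, adjusted p = 0.749), and the outside share of assembled coverage times span was 0.917% ± 0.083 and 0.956% ± 0.102 (exact permutation p = 0.425, adjusted p = 0.733). In a single direction the smallest p that these exact permutation tests allow is 0.000155, and the two-sided minimum is larger.

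Coverage of single loci was compared with limma on log2(scaled coverage + 1), a scale that understates changes of low loci, over 31551 features. None of the 2252 all-library loci passed an adjusted p under 0.05, as 0% of all features did. At an unadjusted p under 0.05 there were 99 loci (4.40%), 14 higher and 85 lower in High, beside 3.22% of all features, 2.32% in the lower direction. Exact Wilcoxon tests called 0 and had 105 loci (4.66%) at an unadjusted p under 0.05, beside 3.62% of all features. The direction depended on scaling: the median log2 difference was -0.05 for outside loci and -0.03 for all features, and without scaling 0.09 and 0.13, with 65 loci higher and 8 lower at an unadjusted p under 0.05 (3.24%, beside 3.64% of all features). At 0 loci did the High and Control values fail to overlap, beside 0.00951% of all features. The 95% interval of a locus had a median half-width of 0.25 on the log2 scale, and within the 15 libraries the coefficient of variation had a median of 21.6%.

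The loci with the lowest p in each direction are given as values. Higher in High without passing the test were chr19:55195302-55197235, chr1:221182743-221204357 and chr8:72028277-72029482. The first lies 469 bases before Zc3h18, on the opposite strand, and was at 1.33 to 2.53 in Control and 1.97 to 4.10 in High (log2 difference 0.40 ± 0.12, SE, limma adjusted p = 1.0). The locus on chromosome 1, 8955 bases past Frmd8 on its strand and 23951 bases from AC134224.3, was at 28.7 to 40.4 in Control and 33.9 to 50.8 in High (0.31 ± 0.10, limma adjusted p = 1.0). The locus 7 bases from Herc1, on the opposite strand, was at 2.07 to 7.07 in Control and 4.51 to 9.003 in High (0.60 ± 0.21, limma adjusted p = 1.0).

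Lower in High without passing the test were chr11:12818939-12822453, chr1:13985869-14075690 and KL568097.1:37312-40630. The first was at 1.75 to 4.16 in Control and 1.38 to 2.06 in High (log2 difference -0.43 ± 0.12, SE, limma adjusted p = 1.0). The locus of 89822 bases on chromosome 1 was at 3.92 to 11.7 in Control and 0.556 to 5.09 in High (-0.92 ± 0.27, limma adjusted p = 1.0). The third, 11498 bases past LOC100909715 on its strand, was at 1.90 to 4.06 in Control and 1.64 to 2.57 in High (-0.35 ± 0.11, limma adjusted p = 1.0). At all 6 the groups overlapped, and library 56, on the opposite strand, lay at 3.57 and 46.3 at the loci near Zc3h18 and Frmd8, above the other Control libraries. At chr1:13985869-14075690 it lay at 2.05, below the other Control libraries.

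**Figure D5:**
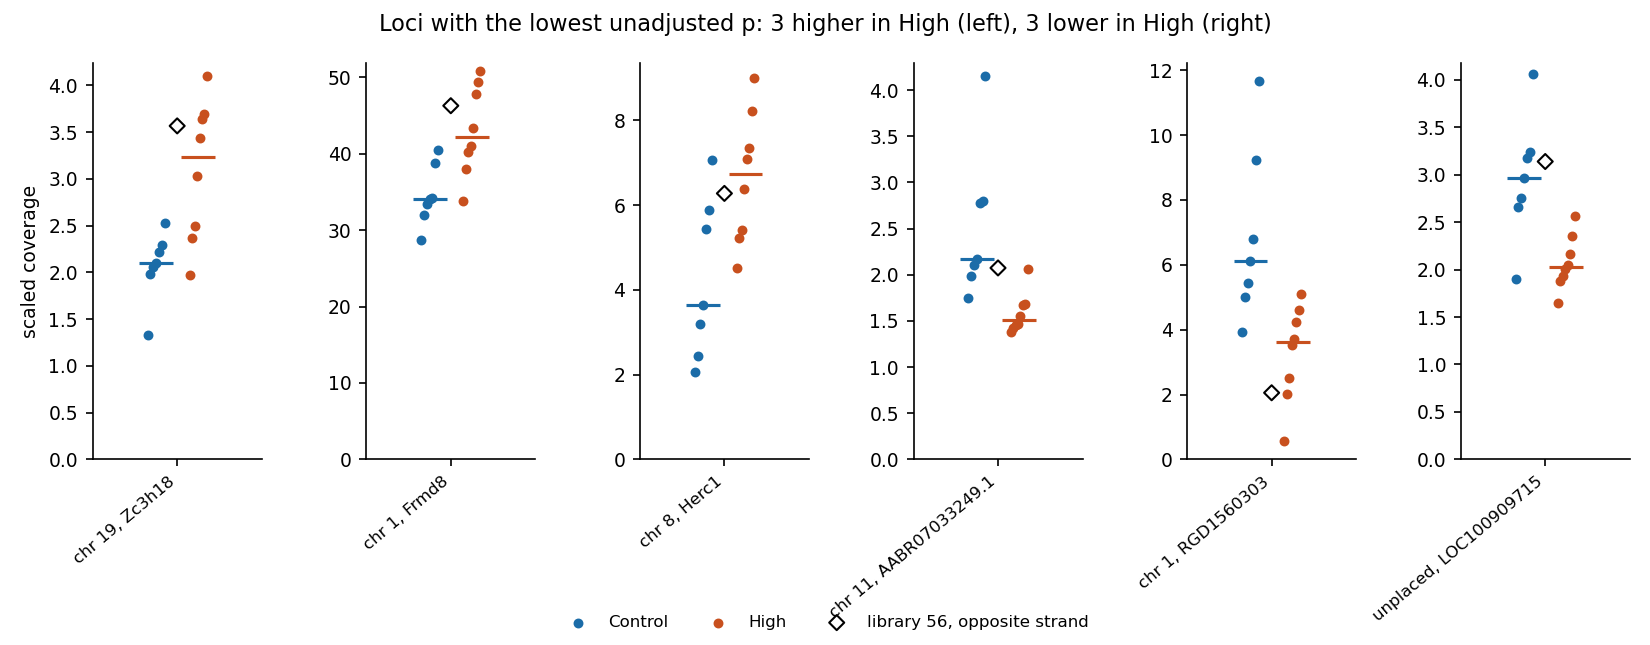
The vertical axes are scaled coverage, on a separate scale from 0 for each of the 6 loci with the lowest unadjusted p, which are named by chromosome and nearest reference gene. Points are the 7 Control (blue) and 8 High (orange) libraries, bars are group medians, and open diamonds are library 56 on the opposite strand. The groups overlap in each panel, as at the Frmd8 locus with 28.7 to 40.4 and 33.9 to 50.8.

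Presence of a locus was compared with Fisher's exact test over 67540 assembled consensus loci found in at least 2 libraries, 41423 of them outside. None passed an adjusted p under 0.05, beside 0% of all assembled loci. At an unadjusted p under 0.05 there were 422 outside loci (1.02%), 255 found more often in High and 167 in Control, beside 0.844% of all assembled loci. No outside locus was in all High and no Control libraries. Counts toward High and toward Control are not on an equal footing. High had 8 libraries against 7 in Control, at a median depth of 6.52 against 5.15 gigabases, and the part of depth in presence was not tested. In at least 6 High and no Control libraries there were 18 (0.0435%), beside 0.0341% of all assembled loci. These 18 are not named here. The loci named next do not stand for the direction of the counts. Nor are they the only ones at the lowest p of Fisher's exact test, which 5 outside loci shared. In at least 6 Control and no High libraries there were 3 (0.00724%, beside 0.0074%), named after their values were seen: chr1:15409496-15411511, 1092 bases from Map3k5, chr10:52169838-52171573, 24551 bases past Map2k4, and chr2:141907-142365, 267407 bases from a 5.8S ribosomal RNA gene. Each was in 6 Control and 0 High libraries (Fisher's exact p = 0.0014, adjusted p = 1), at a median coverage of 2.66 to 3.24.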

How the data were processed

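Frontal cortex RNA-Seq tables of 24 rats were used as deposited, and assembled loci were read from the 16 Control and High tables. Per the labels, the authors' processing notes name FastQC, Trimmomatic, TopHat2, StringTie and mRatBN7.2, without versions. Chromosome 1 of the tables runs to 282724300, past the end of that chromosome in mRatBN7.2, so the build is not settled and positions are those of the tables. The authors deposited coverage, the mean read depth per base from StringTie, not scaled for depth. StringTie scales the deposited FPKM by locus length and by sequenced bases, and it was used for sequenced gigabases and in 1 alternative. The deposited TPM was not used.

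Loci were matched by at least 1 base on the same strand with single linkage over 15 libraries, and several rows of a library in 1 consensus locus were averaged by span. Coverage was divided by its sum over reference genes and multiplied by 1000000. Reference genes with a mean of at least 1 and assembled loci found in all 15 libraries entered limma 3.58.1 (trend, robust) in R 4.3.3, with a pseudocount of 1, two-sided, Benjamini-Hochberg over all features. Per-library measures were compared by exact permutation tests of the difference of means, adjusted over 7 measures, and presence by Fisher's exact test. The permutation and Fisher tests ran in scipy 1.17.1 under Python 3.11.15, adjustment in statsmodels 0.14.6, tables in pandas 2.3.3 and numpy 2.4.6, and plots in matplotlib 3.10.9. Matching, distances, the permutation test and limma were tested on simulated data.

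Named loci were, among all-library loci, the 10 with the highest coverage, the 5 longest and the 5 farthest from a gene. For High against Control, since 0 passed, the 3 lowest unadjusted p in each direction were named, and for neighbours, the 10 genes with a symbol and the most loci past their end, and per gene list the 3 best covered. The loci, lists and rules were chosen with earlier results of these data known. Loci with divergent promoters, the 3 high loci missing in some libraries and the 3 loci by presence were chosen after their values were seen. Names between neighbours came from RefSeq GRCr8 by order of 17192 genes with a symbol in both annotations, kept where the gap between neighbours differed by less than a factor of 2. Alternatives were library 56, each library left out, other pseudocounts, filters, scalings, the FPKM column, Wilcoxon tests, and other matching rules. Added after seeing the data were the exchange of strands of library 56 and the sum of coverage without span. The Low tables and locus sequences were not analysed here. Values of some genes that these rules name are not reported here, while counts include them.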

Additional observations from a re-analysis of the deposited data

Results flagged for a closer look

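In groups of 7 or 8 libraries, 72 sets of values were searched for a library far from the rest of its group, and 9 were found. At 1 in 20, about 3.6 would come up in independent sets chosen without regard to their values. These sets are related to each other and some loci were picked by their values, so 9 against 3.6 does not measure an excess. In 4 of the 9 the library was Control 56, which had been set apart beforehand. Its outside share of assembled loci was 26.9%, against 46.7% to 55.1% in the other 7 Control libraries. Its share of outside loci past a gene end on the gene's strand was 8.78% against 23.3% to 27.9%. Its share past a gene end on the opposite strand was 20.1% against 10.4% to 11.9%. Its antisense share of assembled loci was 59.9% against 8.20% to 10.96%.

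Control library 51 was the deepest of its group, at 7.86 sequenced gigabases against 5.05 to 6.09. High library 66 was lowest at both long loci named in the report, at 21.8 against 58.7 to 88.1 at chr16:85528118-86054741, and at 13.1 against 34.8 to 47.0 at chr4:48308084-48817839. Control library 55 was high at the gene-poor locus chr13:11390084-11392333, at 13.3 against 3.05 to 5.06. High library 68 was highest of its group at chr11:12818939-12822453, at 2.06 against 1.38 to 1.68.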

How the results depend on the processing

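No per-library measure passed an adjusted p under 0.05 in the main tests or in any alternative run for it, and 0 outside loci were called for coverage or presence in every alternative run. The coverage fit was run with library 56 (240 loci), with its strands exchanged (2229 loci), and with other pseudocounts, filters, scalings and values. Without 1 library the number of loci at an unadjusted p under 0.05 ranged from 71 to 162 for coverage. It was 162 without library 49 (7.19%, beside 11.9% of all features), 158 without library 51 (7.02%, beside 4.06%) and 71 without library 52 (3.15%, beside 2.40%). For presence it ranged from 111 without library 67 (0.290%, beside 0.246% of all assembled loci) to 308 without library 49 (0.792%, beside 0.630%). With library 56 in Control the difference between High and Control changed sign for the number (-191), distance (-574 bases) and the share past gene ends (1.83 points), and with a coverage of at least 5 it did so for span (-0.205 bases) and median coverage (-0.057). Per sequenced gigabase the number also changed sign (-134). The difference between High and Control without 1 library ranged from 970 to 3464 for the number, from 0.802 to 2.20 percentage points for the share of assembled loci, from 1.25 to 7.08 bases for span, from 0.029 to 0.052 for median coverage, from -48.5 to 776 bases for distance (with 2 changes of sign), from -0.802 to -0.029 points for the share past gene ends and from -0.058 to -0.009 points for the share of coverage times span.

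The number of consensus loci was 18331 with only loci of coverage of at least 5. The share found in 1 library was 73.5% with library 56 in the consensus, 67.4% with its strands exchanged, 49.8% with any assembled locus on the same strand counted, 65.2% without regard to strand, 60.5% at a coverage of at least 5 and 69.4% with 50% of the shorter locus shared. In the same order the share found in all libraries was 0.149%, 1.65%, 4.75%, 2.002%, 3.62% and 1.58%. Leaving out rows without a strand changed nothing, since there were 0. No paired analysis was possible because Control and High share no replicate numbers. Most outside loci have a coverage under 5, so absence in a library is weak evidence of absence of the RNA.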
